A study of Mus musculus with 6 samples.

Results

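The Wnt ligands, their receptors, their secreted antagonists and the proteins that carry the signal to the nucleus were followed in the corneal epithelium of mice with and without Rela. Members were the rows of the deposited gene table whose symbol began with Wnt, Fzd, Sfrp or Dkk and a digit, together with Lrp5, Lrp6, Axin1, Axin2, Ctnnb1, Lef1, Tcf7, Tcf7l1, Tcf7l2, Wif1, Frzb, Porcn, Rnf43, Znrf3 and Lgr4 to Lgr6. This rule, which used no measured value, found 50 of 17866 protein-coding genes. Wif1 was not among those found. Bulk RNA-seq was measured in 6 libraries of separated corneal epithelium, 3 labelled WT and 3 labelled Rela-/- (KO), each from its own biological sample. All mice were C57BL/6 and 6 months old, and no treatment was named. According to the study's methods the KO mice carried Krt14-Cre and floxed Rela alleles (Krt14-Cre; Rela f/f), so that Cre acts in every Krt14-expressing epithelium, the conjunctiva and skin included. Rela encodes p65, a DNA-binding subunit of NF-κB.

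Wnt proteins are secreted, lipid-modified ligands that bind a frizzled receptor on a nearby cell, alone or with the co-receptors Lrp5 and Lrp6. In the canonical branch this stops a destruction complex built on axin and Apc from degrading beta-catenin, which then works with TCF/LEF factors at target genes, whereas other branches act on cell polarity and movement. In the cornea and its limbus, Wnt signals are known for their part in the upkeep and identity of the epithelium, and antagonists such as the Dkk and Sfrp proteins set how far a signal reaches.

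Library totals lay between 20158404 and 20880347 estimated counts, and 3 counts equalled between 0.137 and 0.152 CPM (counts scaled to a library total of 1000000 with edgeR's TMM factors). Rela itself had 85.7, 85.8 and 87.8 CPM in WT and 16.1, 11.2 and 15.6 CPM in KO (log2 fold change -2.60, SE 0.141, edgeR adjusted p = 2.74e-06). Markers of the tissue differed widely between the genotypes. The corneal keratin Krt12 averaged 36538 ± 1060.0 CPM in WT and 7121 ± 1363 CPM in KO (SD, n = 3 each), and the epidermal keratin Krt1 averaged 7.57 ± 0.152 CPM in WT and 6039.7 ± 3854 CPM in KO (SD, n = 3 each). Of 7 listed corneal epithelial markers tested, 6 fell in KO, and all 5 epidermal and all 5 conjunctival or goblet cell markers rose. Their summed levels were 107324 to 114752 TPM in WT and 20116 to 23125 TPM in KO for the corneal list (TPM is a level per transcript length that sums to 1000000 in a library), 14.2 to 20.8 against 14000.1 to 21939.5 TPM for the epidermal list, and 2694 to 3836 against 50803 to 66775 TPM for the conjunctival list. Other cell types also left a trace. The stromal list had 6 of 8 tested genes higher and 2 lower, the latter Pdgfra and Fn1, and its summed level was 99.7 to 169 TPM in WT and 23.4 to 36.5 TPM in KO. The leukocyte list had 5 of 7 higher and 1 lower, with sums of 178 to 205 TPM in WT and 187 to 253 TPM in KO. Both sums rested largely on a few genes, named after their values were seen. Fn1 had 120.1 ± 38.2 TPM in WT and 8.26 ± 0.598 TPM in KO (SD, n = 3 each). Of the leukocyte list, Itgam, the gene that fell, had 124 ± 14.1 TPM in WT and 64.5 ± 12.1 TPM in KO (SD, n = 3 each), Cd68, which did not pass the test, had 53.2 ± 6.1 TPM in WT and 44.5 ± 7.54 TPM in KO (SD, n = 3 each), and Cd74, which rose, had 14.1 ± 5.26 TPM in WT and 89.5 ± 27.5 TPM in KO (SD, n = 3 each). Of the genes that rose, 5 stromal, 4 leukocyte, 1 endothelial, 2 conjunctival and 3 epidermal genes passed the filter on low counts through the KO libraries alone. Melanocyte and Schwann cell markers fell for all 3 tested of 7, from 8.05 to 8.76 TPM in WT to 2.99 to 3.96 TPM in KO. In the hair follicle list 1 of 2 tested genes rose, with sums of 6.55 to 11.2 TPM in WT and 8.86 to 12.5 TPM in KO, and Hoxc13 had 0, 0 and 0 counts in WT, against 0, 0 and 2 in KO. Among single markers, Vim had 0.595, 1.35 and 0.77 CPM in WT and 8.61, 7.98 and 14.4 CPM in KO, Dcn had 1, 0 and 1 counts in WT, against 153, 24 and 93 in KO, Col1a1 had 1, 26 and 8 counts in WT, against 27, 49 and 51 in KO, and Ptprc had 0.595, 0.233 and 0.379 CPM in WT and 5.32, 4.36 and 6.13 CPM in KO. The endothelial marker Pecam1, the sole tested gene of its list, had 1, 3 and 4 counts in WT, against 15, 14 and 16 in KO, Kdr of the same list had 0, 0 and 0 counts in WT, against 0, 1 and 2 in KO, Lum of the stromal list had 0, 0 and 0 counts in WT, against 2, 4 and 1 in KO, and the endothelial list summed to 0.03 to 0.16 TPM in WT and 0.45 to 0.47 TPM in KO. The part that a changed mix of cells had in the results that follow was not tested, and in bulk samples fewer cells of a type and less RNA per cell cannot be told apart.

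In the KO epithelium most ligands with a detectable change were lower, Wnt2, Wnt6 and Wnt3a by the largest factors, while Wnt5a was higher. On the receiving side Lgr6, Tcf7 and Axin2 were higher by 9.03-fold to 14.5-fold, and the antagonist Dkk3 and the receptor Fzd5 were lower. Of the 50 members, 35 passed the filter on low counts and 15 did not. At an adjusted p of 0.05 (edgeR quasi-likelihood test, Benjamini-Hochberg over 13305 genes), 22 of the 35 were called (62.9%), beside 62% of all genes tested. Members called higher numbered 9 (25.7%, against 31.8% of all genes tested) and members called lower 13 (37.1%, against 30.2%). At the study's own threshold of an adjusted p of 0.001 and a 2-fold change, 11 members were called (31.4%, against 19.8%), 6 higher and 5 lower. The 3 WT and 3 KO CPM values did not overlap in 24 of the 35 (68.6%, against 68.7%). The share of members called was therefore near that of all genes, and their median log2 fold change of 0.02 stood beside 0.01 over all genes tested. Lgr6 and Tcf7 passed the filter through the KO libraries alone.

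**Figure D1:**
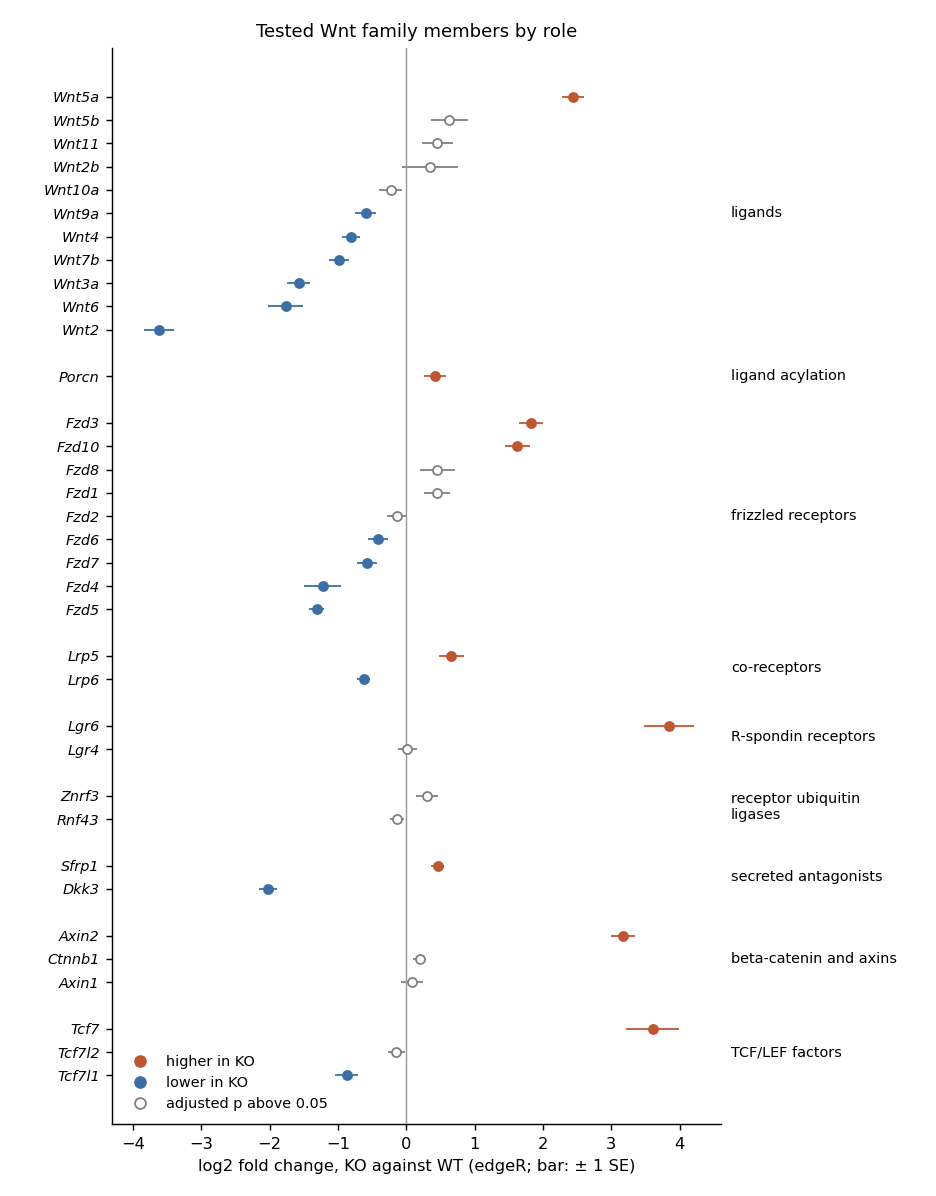
Log2 fold change (KO against WT, edgeR) of the 35 tested members, grouped by role, with bars of 1 SE. Points run from -3.61 for Wnt2 to 3.84 for Lgr6, and open circles mark the 13 members with an adjusted p above 0.05.

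Promoters of 4 called members, chosen after their values were seen, are shown because the deleted gene encodes a DNA-binding factor. Wnt2 and Lgr6 were the tested members of largest fall and largest rise, and Axin2 the member of lowest adjusted p. Fzd5 was picked because its window, alone among those found for called members, held a κB match. No window was found for the called members Wnt5a, Wnt7b, Fzd3, Fzd6, Lrp5, Lrp6, Porcn, Dkk3 and Sfrp1, so these were not searched. Each line gives the 250 bases before a gene start of the RefSeq promoter table (build GRCm38.p6), 5′ to 3′ on the gene's strand, in lower case with any match to the κB consensus in capitals. The windows were chr6:18030446-18030695, minus strand, for Wnt2, chr1:64737751-64738000, minus strand, for Fzd5, chr11:108920099-108920348, plus strand, for Axin2 and chr1:135105277-135105526, minus strand, for Lgr6. The gene spans of the deposited table, given with each gene in the paragraphs that follow, begin further upstream. The RefSeq start lay inside that span by 2306 bases for Wnt2, 2857 for Fzd5, 2521 for Axin2 and 98 for Lgr6, and by more than 250 bases in 17 of the 44 windows found for members, so a window need not lie before the first transcript of the span.
Wnt2: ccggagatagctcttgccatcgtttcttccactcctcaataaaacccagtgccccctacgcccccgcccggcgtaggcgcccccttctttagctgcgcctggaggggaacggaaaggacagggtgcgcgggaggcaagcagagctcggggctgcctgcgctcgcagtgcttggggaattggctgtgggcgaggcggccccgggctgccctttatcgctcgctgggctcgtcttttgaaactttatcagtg
Fzd5: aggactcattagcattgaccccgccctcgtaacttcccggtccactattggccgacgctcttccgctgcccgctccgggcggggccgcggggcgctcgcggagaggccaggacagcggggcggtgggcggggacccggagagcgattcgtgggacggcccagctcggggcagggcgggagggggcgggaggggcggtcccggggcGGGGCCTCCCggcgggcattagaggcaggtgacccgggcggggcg
Axin2: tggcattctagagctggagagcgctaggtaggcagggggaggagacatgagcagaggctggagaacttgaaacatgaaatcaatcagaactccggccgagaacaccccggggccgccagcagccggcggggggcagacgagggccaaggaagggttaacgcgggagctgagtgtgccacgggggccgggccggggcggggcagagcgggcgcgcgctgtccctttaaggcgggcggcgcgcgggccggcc
Lgr6: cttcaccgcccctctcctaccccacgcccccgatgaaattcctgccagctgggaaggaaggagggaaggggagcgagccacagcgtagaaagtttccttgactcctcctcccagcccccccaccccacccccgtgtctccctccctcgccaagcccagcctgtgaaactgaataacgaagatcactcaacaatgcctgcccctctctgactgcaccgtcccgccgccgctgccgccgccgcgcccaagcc
Of these 4 windows, that of Fzd5, picked for this match, held the κB consensus, beginning 45 bases before the RefSeq start. None of the 4 held the TCF/LEF letters CTTTGAA or CTTTGAT on either strand. Over the 44 windows of 34 members, 4 held the κB consensus (9.09%, against 7.25% of 32851 mouse windows of the same length) and 3 held a TCF/LEF match (6.82%, against 7.48%). The κB matches lay at Fzd5, Wnt16, Wnt10b and Tcf7l2, and the TCF/LEF matches at Wnt5b, Wnt11 and Dkk1. Of these genes, Fzd5 was called by the edgeR test, and Tcf7l2, Wnt5b and Wnt11 were tested but not called. Wnt16, Wnt10b and Dkk1 did not pass the filter on low counts and so were not tested. Member windows were rich in GC, with a median of 66.4% against 52.4% over all windows, and held a median of 16.5 CpG dinucleotides against 6. A match of letters is a description and not a measured binding site.

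Of 17 ligand genes, 11 were tested, of which 6 fell (54.5%, against 30.2% of all genes tested), 1 rose and 4 did not pass the test. The median log2 fold change of the tested ligands was -0.59. Wnt4 (gene 22417, chr4:137277635-137299501, all gene spans on GRCm38 with exons and introns), the ligand of highest level per length in both genotypes, had 317, 352 and 358 CPM in WT and 233, 178 and 175 CPM in KO. Every KO library lay below every WT library, with means of 342 ± 22.2 CPM in WT and 195 ± 32.7 CPM in KO (SD, n = 3 each) and 1.75-fold lower (log2 fold change -0.81, SE 0.131, edgeR adjusted p = 0.000848). Wnt7b (gene 22422, chr15:85535437-85581821), the next in level and a ligand known from many epithelia, had 195, 172 and 186 CPM in WT and 114, 75.7 and 89.99 CPM in KO. Its KO values were again all below the WT values, with KO replicate 1 nearest to them (log2 fold change -0.98, SE 0.145, edgeR adjusted p = 0.000502).

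Wnt2 (gene 22413, chr6:17985474-18032751), a ligand of the canonical branch, showed the largest fall of the tested members with 21, 17 and 19.99 CPM in WT and 1.06, 1.53 and 2.09 CPM in KO. Its means of 19.3 ± 2.08 CPM in WT and 1.56 ± 0.519 CPM in KO (SD, n = 3 each) were 12.4-fold apart with no overlap (log2 fold change -3.61, SE 0.222, edgeR adjusted p = 4.97e-06). Wnt3a (gene 22416, chr11:59248036-59290751), the ligand most often used to stimulate beta-catenin signalling in culture, had 23.2, 22.9 and 16.9 CPM in WT and 7.55, 5.97 and 7.67 CPM in KO. No KO library reached the lowest WT library, and the level was 2.97-fold lower (log2 fold change -1.57, SE 0.168, edgeR adjusted p = 8.77e-05). Wnt6 (gene 22420, chr1:74754342-74785322), a ligand known from surface ectoderm, had 6.69, 5.82 and 7.72 CPM in WT and 2.73, 1.55 and 1.64 CPM in KO. It was 3.41-fold lower, without overlap (log2 fold change -1.77, SE 0.253, edgeR adjusted p = 0.000431). Wnt9a (gene 216795, chr11:59306849-59333552) had 37.6, 50.3 and 38.2 CPM in WT and 32.4, 23.7 and 27.4 CPM in KO, a smaller fall whose highest KO library stayed under the lowest WT library (log2 fold change -0.59, SE 0.156, edgeR adjusted p = 0.00992).

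Wnt5a (gene 22418, chr14:28505473-28527448), the best known ligand of the branches that do not run through beta-catenin, was the sole ligand called higher, with 6.95, 8.23 and 8 CPM in WT and 50.3, 34.9 and 40.6 CPM in KO. All KO values lay far above the WT range, with means of 7.73 ± 0.679 CPM in WT and 42 ± 7.8 CPM in KO (SD, n = 3 each) and 5.43-fold higher (log2 fold change 2.44, SE 0.158, edgeR adjusted p = 6.47e-06). Its close paralog Wnt5b had 2.02, 1.67 and 2.27 CPM in WT and 4.1, 2.61 and 2.54 CPM in KO. These groups did not overlap either, but the change did not pass the test (log2 fold change 0.63, SE 0.267, edgeR adjusted p = 0.0681). Wnt10a, a ligand needed for teeth, hair and sweat glands, had 33.7, 25 and 31.7 CPM in WT and 30.8, 20.4 and 25.9 CPM in KO, with overlap (log2 fold change -0.23, SE 0.172, edgeR adjusted p = 0.273). Wnt11 had 5.27, 4.09 and 7.72 CPM in WT and 8.36, 7.37 and 7.62 CPM in KO, with overlap (log2 fold change 0.45, SE 0.227, edgeR adjusted p = 0.116). Without WT replicate 3, the highest of its group, the Wnt11 log2 fold change was 0.75 with an edgeR adjusted p of 0.0119. Wnt2b was near the limit of detection at 7, 10 and 15 counts in WT, against 13, 16 and 9 in KO (log2 fold change 0.35, SE 0.411, edgeR adjusted p = 0.48).

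The other 6 ligands were at or close to the floor. Wnt1, Wnt7a and Wnt8b had a single count in 1 KO library each and 0 elsewhere, and Wnt3 had 0, 1 and 0 counts in WT, against 4, 0 and 0 in KO. Wnt16 had 2.13, 0 and 4.02 counts in WT, against 7.01, 9.03 and 1.79 in KO, with overlap. Wnt10b had 0, 0 and 0 counts in WT, against 3, 5 and 7 in KO, which placed the KO mean at least 1.67-fold above a floor of 3 counts. Without the filter on low counts Wnt10b was called by edgeR (adjusted p = 0.00974), and also by DESeq2 (adjusted p = 0.0143), on this handful of reads. For the other 5 neither gave a call, and a difference was not detectable at this depth. Porcn, the enzyme that attaches the lipid to Wnt proteins and so allows their secretion, had 39.3, 40.9 and 43.9 CPM in WT and 70.3, 43.8 and 52.2 CPM in KO. The lowest KO library sat within the WT range, and the rise was at the edge of the threshold (log2 fold change 0.42, SE 0.163, edgeR adjusted p = 0.0498). Without KO replicate 1 it was 0.22 with an adjusted p of 0.126, and of the 6 fits that each left out 1 library it kept the call in that without KO replicate 2 alone.

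**Figure D2:**
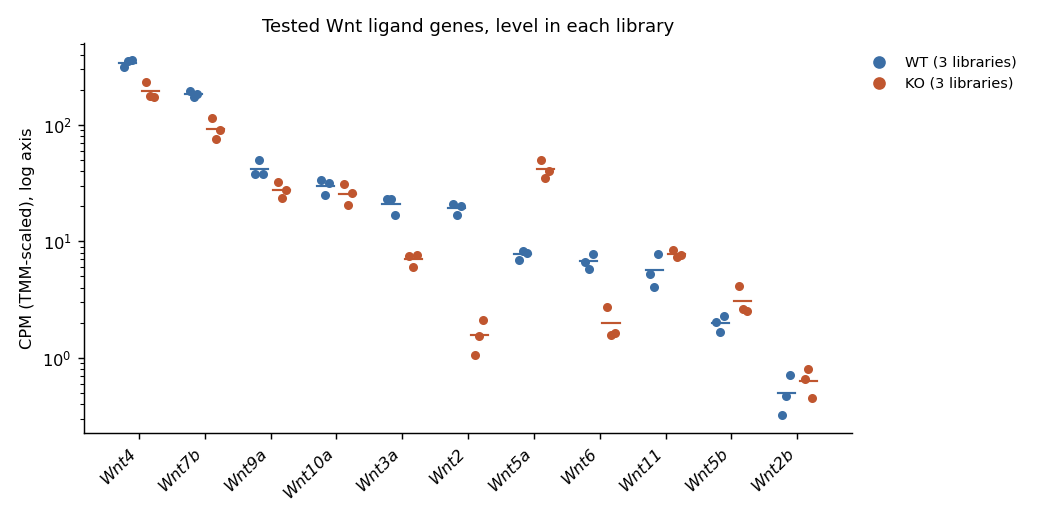
CPM (TMM-scaled, log axis) of the 11 tested ligands in each library, with points for libraries and lines for group means, so groups can be compared within a gene but not levels between genes. Wnt5a rises from 7.73 to 42.0 CPM on average and Wnt2 falls from 19.3 to 1.56 CPM.

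Frizzled genes, the seven-pass receptors of Wnt, moved in both directions: of 9 tested of 10, 2 rose (22.2%, against 31.8% of all genes tested), 4 fell (44.4%, against 30.2%) and 3 did not pass the test. Fzd5 (gene 14367, chr1:64730558-64740607), whose promoter is printed above and which is known as a receptor for Wnt ligands of the canonical branch, had 57.5, 46.8 and 54.3 CPM in WT and 22.7, 21.2 and 19.98 CPM in KO. The KO libraries were tightly grouped below the WT range, with means of 52.9 ± 5.49 CPM in WT and 21.3 ± 1.36 CPM in KO (SD, n = 3 each) and 2.48-fold lower (log2 fold change -1.31, SE 0.11, edgeR adjusted p = 2.51e-05). Fzd4, the receptor for norrin in the retinal vasculature, had 15.8, 10.1 and 11.3 CPM in WT and 5.01, 7.32 and 3.64 CPM in KO. It was 2.33-fold lower, and its spread was wide in both genotypes (log2 fold change -1.22, SE 0.269, edgeR adjusted p = 0.00428). Fzd7 had 28.9, 25.1 and 24.1 CPM in WT and 19.8, 14.5 and 18.2 CPM in KO, a 1.49-fold fall without overlap (log2 fold change -0.57, SE 0.14, edgeR adjusted p = 0.00704). Fzd6, which acts in hair patterning and planar polarity, had 221, 203 and 191 CPM in WT and 143, 190.1 and 129 CPM in KO. Its KO replicate 2 came within 1 CPM of the lowest WT library (log2 fold change -0.41, SE 0.147, edgeR adjusted p = 0.0378). Leaving out any single library other than KO replicate 2 took the adjusted p of Fzd6 to between 0.0589 and 0.127.

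Fzd10 (gene 93897, chr5:128601106-128604093) had 9.48, 9.96 and 11.1 CPM in WT and 40.2, 29.2 and 24.9 CPM in KO. Each KO library was above each WT library, 3.09-fold on the means (log2 fold change 1.63, SE 0.183, edgeR adjusted p = 0.000115). Fzd3 (gene 14365, chr14:65192441-65262463), a receptor of the planar polarity branch, had 3, 3.44 and 3.1 CPM in WT and 12.2, 9.14 and 12.5 CPM in KO, again with no overlap and 3.55-fold higher (log2 fold change 1.83, SE 0.174, edgeR adjusted p = 4.84e-05). Fzd1 had 23.8, 34.3 and 30.6 CPM in WT and 51.8, 34.4 and 35.4 CPM in KO, where the lowest KO value was level with the highest WT value (log2 fold change 0.45, SE 0.19, edgeR adjusted p = 0.0663). Without WT replicate 2 the edgeR adjusted p of Fzd1 was 0.0426, and without KO replicate 2 it was 0.0481. Fzd2 had 9.89, 10.7 and 12 CPM in WT and 11.5, 9.18 and 8.87 CPM in KO (log2 fold change -0.14, SE 0.148, edgeR adjusted p = 0.441), and its groups overlapped. Fzd8 had 8.25, 9.12 and 13.6 CPM in WT and 16.4, 16.8 and 9.37 CPM in KO (log2 fold change 0.46, SE 0.262, edgeR adjusted p = 0.161), also with overlap, and without KO replicate 3 its adjusted p was 0.0304. Fzd9 had 0, 0 and 0 counts in WT, against 2, 1 and 2 in KO.

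The co-receptors went opposite ways. Lrp5, which is also known for its role in bone mass, had 69.5, 60.1 and 58.5 CPM in WT and 129.96, 75.7 and 91.8 CPM in KO. All KO values exceeded the WT values, KO replicate 1 by the most (log2 fold change 0.66, SE 0.185, edgeR adjusted p = 0.0135). Without KO replicate 1 the log2 fold change of Lrp5 was 0.42 with an adjusted p of 0.0206. Lrp6, the co-receptor that most tissues depend on, had 72.1, 63.3 and 67.7 CPM in WT and 47.6, 42.8 and 41.5 CPM in KO, a 1.54-fold fall with no overlap (log2 fold change -0.62, SE 0.0953, edgeR adjusted p = 0.000616).

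Among the R-spondin receptors, which raise frizzled levels at the cell surface, Lgr6 (gene 329252, chr1:134983300-135105374), a stem cell marker in skin and its appendages, was the tested member with the largest rise. It had 0.606, 0.745 and 0.417 CPM in WT and 12, 5.51 and 8.14 CPM in KO, or 13.23, 16.01 and 8.8 counts in WT, against 236.54, 109.86 and 163.38 in KO. The groups were 14.5-fold apart, with KO replicate 1 the highest (log2 fold change 3.84, SE 0.36, edgeR adjusted p = 4.52e-05). Lgr4, by contrast, had 81.8, 61.5 and 77 CPM in WT and 81.6, 77.6 and 63.5 CPM in KO, with full overlap (log2 fold change 0.02, SE 0.136, edgeR adjusted p = 0.929), a difference whose sign changed between alternatives. Lgr5, the intestinal stem cell marker, was close to the floor with 1.07, 0 and 3.1 counts in WT, against 4.22, 3.09 and 4.23 in KO. It did not pass the filter, and without the filter it was not called by edgeR (adjusted p = 0.203). The ubiquitin ligases Rnf43 and Znrf3, which remove frizzled receptors and which R-spondins hold back, did not pass the test. Rnf43 had 24.6, 26.1 and 23.8 CPM in WT and 24.7, 22.1 and 21.1 CPM in KO, with overlap (log2 fold change -0.14, SE 0.104, edgeR adjusted p = 0.284). Znrf3 had 20.8, 21.9 and 23.8 CPM in WT and 34, 25.7 and 22.2 CPM in KO, with overlap (log2 fold change 0.30, SE 0.159, edgeR adjusted p = 0.134), and without KO replicate 3 its adjusted p was 0.0432. Of the R-spondin ligands, Rspo1 had a single count in 1 KO library, and the others were not analysed here.

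Secreted antagonists were almost wholly Dkk3 and Sfrp1, the 2 tested of 8. Dkk3 (gene 50781, chr7:112116019-112159121), a divergent dickkopf whose action on Wnt depends on the cell, had 285, 219.8 and 208 CPM in WT and 58.1, 56.3 and 60.7 CPM in KO. Its KO libraries differed little among themselves and stood well below WT, with means of 238 ± 41.8 CPM in WT and 58.4 ± 2.19 CPM in KO (SD, n = 3 each) and 4.07-fold lower (log2 fold change -2.03, SE 0.132, edgeR adjusted p = 6.67e-06). Sfrp1 (gene 20377, chr8:23411382-23449632), a soluble frizzled-like protein that binds Wnt ligands, had 146, 147 and 152 CPM in WT and 217, 208 and 186 CPM in KO. Every KO library was above every WT library on this scale, 1.37-fold on the means (log2 fold change 0.46, SE 0.0917, edgeR adjusted p = 0.00263). Dkk1, the classical inhibitor of Lrp6, had 2.76, 4.47 and 4.29 counts in WT, against 0, 2.58 and 0 in KO. Sfrp5 had 3, 1 and 1 counts in WT, against 0, 0 and 0 in KO, and Sfrp2 had 0, 0 and 0 counts in WT, against 3, 2 and 1 in KO. Dkk2, Dkk4 and Frzb had at most 4.02 counts in any library. None of these 6 passed the filter. Without it, Sfrp2 alone of the 6 was called by edgeR (adjusted p = 0.049), DESeq2 gave Sfrp2 no adjusted p, and neither tool called another of them.

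Inside the cell, Axin2 (gene 12006, chr11:108917828-108950783), a scaffold of the destruction complex and the most widely used target gene of beta-catenin, had 1.47, 1.3 and 1.33 CPM in WT and 13.8, 12.3 and 10.9 CPM in KO. The underlying reads were 32, 28 and 28 counts in WT, against 272, 246 and 218 in KO. Replicates of each genotype were close together, and the level was 9.03-fold higher in KO (log2 fold change 3.17, SE 0.171, edgeR adjusted p = 2.62e-06), with means of 1.36 ± 0.0883 CPM in WT and 12.3 ± 1.46 CPM in KO (SD, n = 3 each). Axin1, the constitutive scaffold, had 48.4, 49.1 and 50.9 CPM in WT and 66, 40.9 and 50.1 CPM in KO, with KO values on both sides of WT (log2 fold change 0.08, SE 0.16, edgeR adjusted p = 0.678). Ctnnb1, which encodes beta-catenin, had the highest level per length of the members and had 622, 652 and 605 CPM in WT and 725, 719 and 711 CPM in KO. These groups did not overlap, yet the difference of 1.15-fold did not pass the test (log2 fold change 0.20, SE 0.0932, edgeR adjusted p = 0.0958). Its log2 fold change lay between 0.10 and 0.36 over the 17 alternatives, of which DESeq2 (adjusted p = 0.0193) and the edgeR length correction (adjusted p = 0.00797) gave a call. On the TPM scale its means were 394 ± 25.4 TPM in WT and 356 ± 8.68 TPM in KO (SD, n = 3 each), a log2 ratio of -0.15 on a scale where the median gene was at -0.33. Levels of mRNA say nothing of the stability of the protein.

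Of the TCF/LEF factors, Tcf7 (gene 21414, chr11:52252283-52286180) rose, Tcf7l1 fell and Tcf7l2 did not pass the test. Tcf7, which encodes Tcf1, had 0.366, 0.279 and 0.805 CPM in WT and 5.62, 4.61 and 7.52 CPM in KO, or 8, 6 and 17 counts in WT, against 111, 92 and 151 in KO. The KO values were 12.2-fold above those of WT, with no overlap (log2 fold change 3.60, SE 0.382, edgeR adjusted p = 8.41e-05). Tcf7 is also known from T cells, and the T cell marker Cd3e, chosen for mention after its values were seen, had 0, 2 and 2 counts in WT, against 9, 6 and 15 in KO, the part of which was not tested. Tcf7l1, which encodes the repressor Tcf3 of skin stem cells, had 57.6, 52.7 and 52.2 CPM in WT and 36.9, 22.7 and 29.1 CPM in KO, 1.83-fold lower and without overlap (log2 fold change -0.87, SE 0.163, edgeR adjusted p = 0.00183). Tcf7l2, which encodes Tcf4, had 24.6, 25.5 and 25.9 CPM in WT and 27, 21.2 and 20.6 CPM in KO, with overlap (log2 fold change -0.14, SE 0.125, edgeR adjusted p = 0.344), and without KO replicate 1 its adjusted p was 0.0414. Lef1 had 4, 5 and 4 counts in WT, against 12, 12 and 8 in KO, with more reads in each KO library than in each WT library. It did not pass the filter on low counts. Without the filter Lef1 was called higher by edgeR (adjusted p = 0.0321) but not by DESeq2 (adjusted p = 0.118). It also passed the filter in 4 of the fits that left out 1 library, where its edgeR adjusted p lay between 0.0223 (without KO replicate 3) and 0.0623 (without WT replicate 1).

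**Figure D3:**
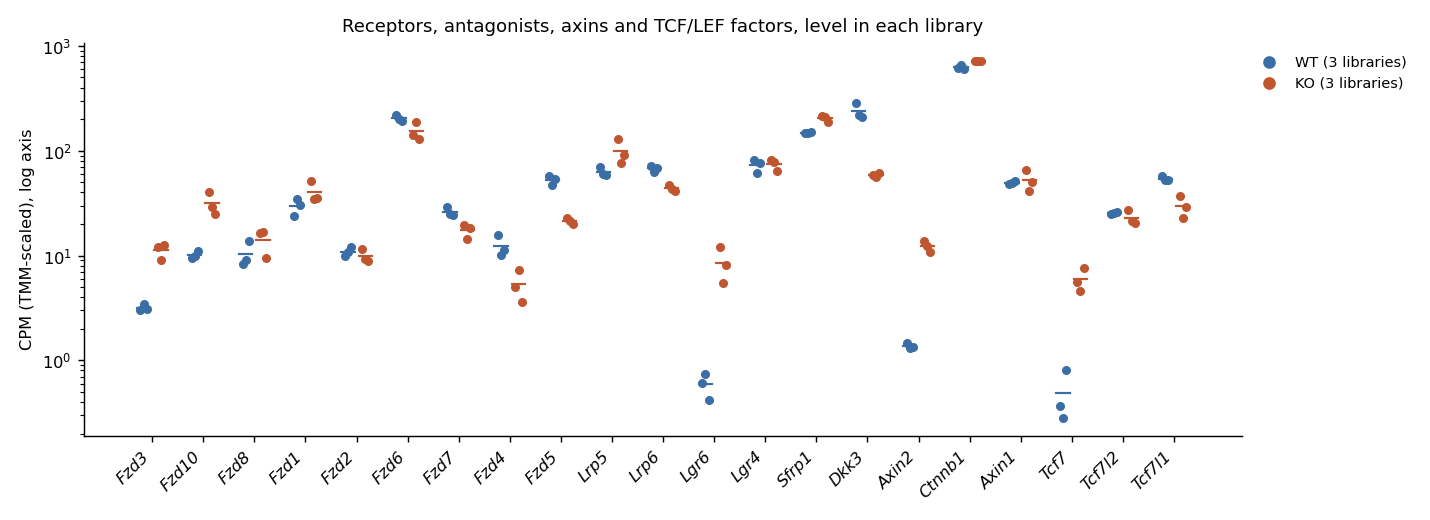
CPM (TMM-scaled, log axis) of the tested frizzled receptors, co-receptors, R-spondin receptors, antagonists, beta-catenin, axins and TCF/LEF factors in each library, with lines for group means. Axin2 (1.36 against 12.3 CPM), Tcf7 and Lgr6 separate widely upward in KO, Dkk3 (238 against 58.4 CPM) and Fzd5 downward, and Lgr4 and Axin1 overlap.

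Levels per length were compared within each family by each gene's share of the family's summed TPM, which no scaling between libraries can move. A share also moves when other genes of the family change, so a larger share need not mean a higher level. Wnt4 and Wnt7b led the ligands in both genotypes, with 45.5% ± 2.55 in WT and 42.8% ± 2.18 in KO for Wnt4 and 27.8% ± 1.7 in WT and 23% ± 1.13 in KO for Wnt7b. Wnt5a went from 0.843% ± 0.0641 in WT to 7.91% ± 0.188 in KO, and so from rank 9 to rank 4 of the 17 ligands. Wnt2 went the other way, with 4.02% ± 0.488 in WT and 0.518% ± 0.208 in KO, from rank 5 to rank 10. Wnt10a, ranked 3 in both, had 7.87% ± 1.15 in WT and 11% ± 0.856 in KO. Its level was nonetheless 34.1 ± 5.58 TPM in WT and 22.9 ± 4.59 TPM in KO (SD, n = 3 each). The KO libraries thus kept the leading pair and exchanged members below it. Summed over the family, ligands amounted to 443, 428 and 425 TPM in WT and 248, 181 and 192 TPM in KO. A typical gene was also lower on this scale, by a median log2 ratio of -0.33 (a factor of 0.795) over the 13305 genes tested, against 0.01 for CPM.

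Fzd6 supplied most of the frizzled transcripts, with 60.8% ± 2.31 in WT and 51.5% ± 6.41 in KO. Behind it the order changed: Fzd5 went from 9.13% ± 0.758 in WT to 4.24% ± 0.41 in KO, or from rank 2 to rank 6, and Fzd10 from 4.07% ± 0.448 in WT to 14.2% ± 2.64 in KO, or from rank 5 to rank 2. Fzd1 held rank 3 in both, with 8.06% ± 1.69 in WT and 12.5% ± 2.67 in KO, and the SDs of its shares leave little room between them. The antagonists exchanged ranks by share, since Dkk3 had 67.3% ± 4.01 in WT and 27.3% ± 2.26 in KO and Sfrp1 32.6% ± 3.99 in WT and 72.6% ± 2.16 in KO. In level, Dkk3 had 157 ± 33.5 TPM in WT and 30.2 ± 0.752 TPM in KO (SD, n = 3 each). Sfrp1 differed far less, with 74.4 ± 1.57 TPM in WT and 80.6 ± 7.1 TPM in KO (SD, n = 3 each). Among the TCF/LEF factors Tcf7l1 led in both genotypes with 73.8% ± 1.84 in WT and 55.1% ± 3.24 in KO, Tcf7l2 followed with 25.2% ± 1.56 in WT and 31.9% ± 3.63 in KO, and Tcf7 had 0.709% ± 0.417 in WT and 12% ± 2.92 in KO. The level of Tcf7l2 was 14.2 ± 0.24 TPM in WT and 10.2 ± 1.68 TPM in KO (SD, n = 3 each). Summed levels were 185 ± 13.8 TPM in WT and 128 ± 18.6 TPM in KO for the frizzled genes, 231 ± 35 TPM in WT and 111 ± 6.66 TPM in KO for the antagonists and 56.5 ± 3.87 TPM in WT and 32.3 ± 5.91 TPM in KO for the TCF/LEF factors.

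**Figure D4:**
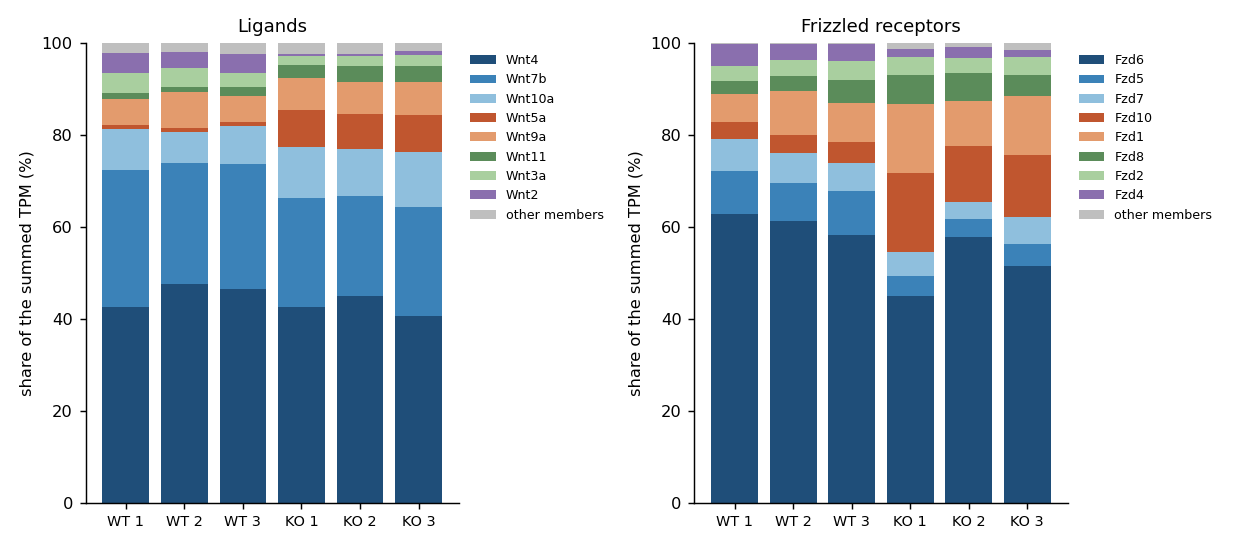
Share of the summed TPM (%) of each ligand (left) and each frizzled receptor (right) in the 6 libraries. The Wnt5a band widens from 0.843% to 7.91% on average and the Fzd10 band from 4.07% to 14.2%, while Wnt4 and Fzd6 stay the largest.

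KO replicate 1 was the highest KO library for 26 of the 35 tested members (74.3%), beside 34.8% of all genes tested. KO replicate 2 was highest for 4 and KO replicate 3 for 5. The median coefficient of variation of the members was 9.64% in WT and 20.3% in KO, beside 9.78% and 11.6% over all genes tested. Krt1 was highest in KO replicate 1 as well, with 10287, 2765 and 5067 CPM in the KO libraries. The rest of the epidermal list was named after its values were seen. Lor, Flg and Krt10 were also highest in KO replicate 1, Krt10 by a small margin with 7415, 6227 and 6995 CPM. Krtdap was highest in KO replicate 2, with 1251, 1417 and 1157 CPM. The pattern was not confined to epidermal markers. Of the conjunctival list, also named after its values were seen, Krt13, Krt4 and Spdef were highest in KO replicate 1. Krt13 had 43614, 40309 and 30821 CPM in the KO libraries. Muc5ac and Krt19 of that list were highest in KO replicate 3. Without KO replicate 1, 21 members were called, 8 higher and 13 lower, against 9 and 13 with it. The part of this library's cell mix in these values was not tested.

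The other genes of the pathway were taken from lists of 101 symbols that hold no member, of which 94 were in the table and 78 were tested. Of these 23 rose (29.5%), 24 fell (30.8%) and 31 did not pass the test, against 31.8% and 30.2% of all genes. Of those that rose, 8 passed the filter on low counts through the KO libraries alone, namely Notum, Apcdd1, Igfbp4, Serpinf1, Ror1, Ror2, Tnfrsf19 and Fosl1. Around secretion and ligand handling, 4 of 6 tested genes rose (66.7%) and 1 fell (16.7%). Wls, the carrier that brings Wnt proteins to the cell surface, had 98.2, 117 and 105 CPM in WT and 131, 136 and 130.2 CPM in KO, without overlap (log2 fold change 0.31, SE 0.0909, edgeR adjusted p = 0.0176). Its call was lost without WT replicate 1 (edgeR adjusted p = 0.0643), with library totals as the only scaling and in both limma fits. Gpc4, a heparan sulfate proteoglycan that binds Wnt proteins, had 5.45, 5.57 and 4.24 CPM in WT and 9.19, 9.19 and 8.33 CPM in KO (log2 fold change 0.80, SE 0.156, edgeR adjusted p = 0.00227). Sdc1, the main syndecan of epithelia, had 1567, 1554 and 1432 CPM in WT and 803, 813 and 826 CPM in KO. It lay on the other side, 1.86-fold lower (log2 fold change -0.90, SE 0.101, edgeR adjusted p = 0.000118).

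Other secreted or membrane inhibitors included large rises: of 9 tested, 4 rose (44.4%, against 31.8% of all genes) and 1 fell (11.1%, against 30.2%). Of those that rose, 3 had passed the filter through KO alone, namely Apcdd1, Igfbp4 and Serpinf1. Apcdd1, a membrane inhibitor of Wnt, had 0.412, 0.233 and 1.04 CPM in WT and 83, 58 and 46.7 CPM in KO. Its KO libraries lay far above WT, and replicate 1 was again the highest (log2 fold change 6.79, SE 0.398, edgeR adjusted p = 4.01e-06). Igfbp4, an IGF-binding protein that also blocks frizzled and Lrp6, had 0.275, 0.465 and 0.426 CPM in WT and 35.1, 28.6 and 35.1 CPM in KO (log2 fold change 6.39, SE 0.199, edgeR adjusted p = 2.73e-07). Sostdc1, an antagonist of both BMP and Wnt, had 0.825, 0.744 and 1.14 CPM in WT and 18.4, 14.7 and 16.7 CPM in KO (log2 fold change 4.2, SE 0.196, edgeR adjusted p = 1.48e-06). Kremen1, a receptor for Dkk proteins, fell, with 166, 155 and 157 CPM in WT and 101, 66.7 and 79 CPM in KO (log2 fold change -0.95, SE 0.145, edgeR adjusted p = 0.000605). In none of these 4 genes did the groups overlap. Of 14 tested receptors and polarity genes, 6 rose (42.9%, against 31.8% of all genes) and 3 fell (21.4%, against 30.2%). Tspan12, a partner of Fzd4, had 3.76, 3.86 and 7.62 CPM in WT and 9.01, 12.1 and 13.4 CPM in KO (log2 fold change 1.18, SE 0.288, edgeR adjusted p = 0.00718), and the polarity gene Vangl2 had 17.9, 19.4 and 20.6 CPM in WT and 40.2, 29.6 and 30.5 CPM in KO (log2 fold change 0.79, SE 0.139, edgeR adjusted p = 0.00127). Both rose without overlap, whereas Prickle1 and Prickle2, of the same polarity pathway, fell. Prickle2 had 55.1, 42.7 and 42.2 CPM in WT and 24.3, 20.8 and 23.3 CPM in KO (log2 fold change -1.03, SE 0.131, edgeR adjusted p = 0.000217), and Prickle1 had 7.01, 5.77 and 7.01 CPM in WT and 3.19, 3.56 and 4.04 CPM in KO (log2 fold change -0.87, SE 0.174, edgeR adjusted p = 0.00254).

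The list of transduction and destruction complex genes leaned downward, with a median log2 fold change of -0.29. Of 22 tested, 12 fell (54.5%, against 30.2% of all genes), 2 rose (9.09%, against 31.8%) and 8 did not pass the test. Of those that fell, Fbxw11, Tnks2, Gsk3b and Siah1a lost their call under some alternatives, and the others kept it in all. With the length correction the log2 fold change was -0.0898 for Fbxw11, -0.0522 for Tnks2 and 0.00695 for Gsk3b. Btrc, the ubiquitin ligase subunit that recognises phosphorylated beta-catenin, had 31, 25.5 and 26.6 CPM in WT and 10.4, 10.1 and 9.72 CPM in KO. Its KO values lay close together, 2.75-fold below WT (log2 fold change -1.46, SE 0.116, edgeR adjusted p = 1.88e-05). Dvl2, which relays the signal from frizzled, had 25.7, 25.4 and 19.3 CPM in WT and 11.5, 9.58 and 8.67 CPM in KO (log2 fold change -1.24, SE 0.159, edgeR adjusted p = 0.000238). Amer1, a scaffold that binds Apc, had 52.9, 48.8 and 48.5 CPM in WT and 23.6, 28.1 and 19.96 CPM in KO (log2 fold change -1.07, SE 0.13, edgeR adjusted p = 0.000183). Frat2, an inhibitor of Gsk3, rose, with 2.33, 2.34 and 1.73 CPM in WT and 8.69, 6.91 and 7.46 CPM in KO (log2 fold change 1.85, SE 0.193, edgeR adjusted p = 7.71e-05). None of the 4 overlapped between genotypes. The list holds both activators and inhibitors of the pathway.

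Of 16 tested nuclear cofactors, 3 rose (18.75%, against 31.8% of all genes), 4 fell (25%, against 30.2%) and 9 did not pass the test. Tle1, a Groucho-type co-repressor, had 0.744, 1.03 and 1.99 CPM in WT and 16.3, 14 and 17 CPM in KO (log2 fold change 3.66, SE 0.298, edgeR adjusted p = 2.18e-05). Tle6, its divergent relative, had 1.19, 1.49 and 1.75 CPM in WT and 4.61, 4.16 and 4.58 CPM in KO (log2 fold change 1.59, SE 0.22, edgeR adjusted p = 0.000356). Ctnnbip1, which keeps beta-catenin from TCF factors, had 36.3, 34.3 and 35.8 CPM in WT and 111, 69.6 and 60.5 CPM in KO (log2 fold change 1.18, SE 0.208, edgeR adjusted p = 0.0013). All KO libraries were above WT for these 3, and the histone acetyltransferase gene Ep300 was below, with 181, 166 and 153 CPM in WT and 115, 96 and 115 CPM in KO (log2 fold change -0.62, SE 0.107, edgeR adjusted p = 0.0012).

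Of 13 tested genes commonly listed as Wnt targets, 5 rose (38.5%, against 31.8% of all genes) and 3 fell (23.1%, against 30.2%). The other 5 did not pass the test, and the shares were close to those of all genes. As the list holds no member, target genes such as Axin2 are not counted in it. Of the genes that rose, Notum, Tnfrsf19 and Fosl1 passed the filter on low counts through the KO libraries alone. Bambi, a decoy receptor of the TGF-beta family, had 3.44, 3.35 and 4.12 CPM in WT and 27, 33.4 and 28.6 CPM in KO (log2 fold change 3.03, SE 0.143, edgeR adjusted p = 1.55e-06). Tnfrsf19 had 0, 0 and 5 counts in WT, against 339, 402 and 285 in KO (log2 fold change 7.68, SE 0.516, edgeR adjusted p = 7.88e-06). With WT close to 0 its fitted value depends on the setting, between 2.25 and 11.5 over the alternatives. Fosl1, an AP-1 subunit, had 1.1, 1.14 and 0 counts in WT, against 119.94, 40.52 and 243.03 in KO, which made it at least 44.8-fold higher in KO with the WT libraries set to 3 counts. Myc, the growth regulator, had 26.5, 23.6 and 30.6 CPM in WT and 89.1, 65.9 and 78.3 CPM in KO, 2.89-fold higher and without overlap (log2 fold change 1.53, SE 0.141, edgeR adjusted p = 4.21e-05). Ccnd1, which encodes cyclin D1, had 428, 474 and 338 CPM in WT and 161, 126 and 190.2 CPM in KO. It was 2.6-fold lower, likewise without overlap (log2 fold change -1.38, SE 0.179, edgeR adjusted p = 0.000252). Myc and Ccnd1, both well known as drivers of the cell cycle, thus lay on opposite sides.

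**Figure D5:**
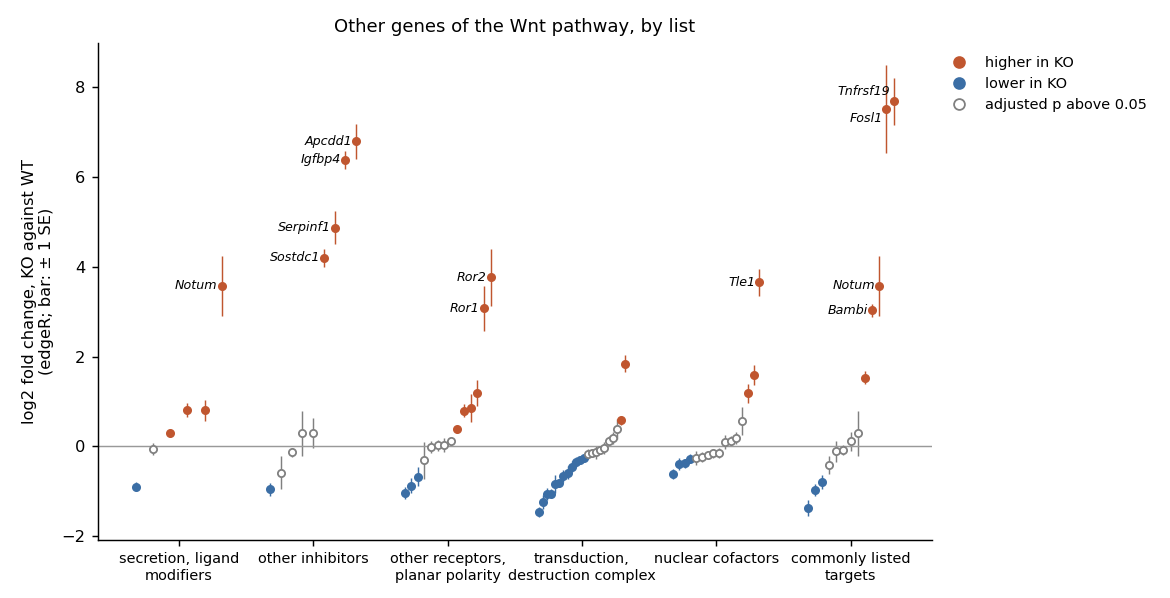
Log2 fold change (KO against WT, edgeR) with bars of 1 SE for the tested pathway genes outside the member rule, by list, with Notum and Nkd1 shown in each of their 2 lists. The transduction and destruction complex list has 12 of 22 genes lower, and Tnfrsf19, Fosl1, Apcdd1 and Igfbp4 stand highest, where the fitted values of Tnfrsf19, Fosl1, Notum and Serpinf1 depend on WT counts near 0.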

How the data were processed

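The deposited table held, per library, RSEM estimated counts, FPKM and TPM, which the authors made with SOAPnuke, Bowtie2 2.2.5 and RSEM 1.2.12 per the study's methods and the submitters' processing notes. Those notes name mm9, whereas the table's coordinates are GRCm38. The methods describe ribosomal RNA depletion and single-end reads on a BGI instrument, the labels an Illumina kit, and the use of strand is not given, so a gene and an overlapping or antisense gene cannot be told apart. The authors' own fold changes, p-values and group averages were not used.

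Estimated counts were rounded and tested with edgeR 4.0.16 (TMM, filterByExpr with a minimum count of 10, glmQLFit and glmQLFTest, genotype as the only term). The SE is the absolute log2 fold change over the square root of F. A replicate block, DESeq2 1.42.0, limma 3.58.1 on the deposited FPKM, other scalings and filters, a length correction and leaving out each library were alternatives. Deposited TPM served for levels between genes. Counts within 0.005 of a whole number were taken as whole. Of these fits, that of edgeR alone was run on simulated counts. These held far fewer changed genes than were called here, so no conclusion is drawn from that run. Floors cover counting error only, since PCR copies were not told apart.

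The members and lists were chosen with earlier results of these data known. Members named with full values were the 25 of lowest adjusted p and Ctnnb1, Axin2, Lrp5, Lrp6, Lgr4, Lgr5, Lgr6, Lef1, Tcf7, Tcf7l1 and Tcf7l2, and the other tested members were given with their values as well. From each other list up to 4 called genes of the largest change with a mean count of at least 50 were named, plus Wls, the R-spondins, Myc and Ccnd1, and from the marker lists Krt12, Krt1, Rela, Col1a1, Dcn, Vim, Ptprc and Pecam1. Promoters came from RefSeq (GRCm38.p6), where 34 of 50 members matched, and none on chromosome 18 was read. Listed symbols absent from the rows used were not analysed here.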

Additional observations from a re-analysis of the deposited data

How the results depend on the processing

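The 17 alternatives changed the tool (DESeq2, limma on log2(FPKM + 1) and log2(FPKM + 0.1)), the scaling, the filter, the dispersion, gene length, the block or the libraries used. Of the 22 members called, 20 were called in the same direction in every one of them, and Porcn and Fzd6 were not. The size of some rises depended on the setting. Over the alternatives the log2 fold change lay between 1.01 and 4.13 for Lgr6 and between 1.38 and 4.18 for Tcf7. For Axin2 it lay between 1.52 and 3.35, and for Fzd3 between 0.552 and 2.18. Of the 13 members not called, 3 stayed not called and kept their sign in every alternative. Among the rest, Fzd1 also gained a call with DESeq2 and with the length correction, and Znrf3 with the length correction. Between 20 and 25 members were called. The count of other pathway genes past the study threshold was 18, and between 10 and 16 when 1 library was left out, lowest without WT replicate 1. Members near zero changed sign. Axin1 was -0.016 with library totals only, -0.068 and -0.073 on the FPKM scales with pseudocounts of 1 and 0.1, and between -0.12 (without KO replicate 1) and 0.23 when 1 library was left out. Lgr4 was -0.079 with library totals only, -0.076 and -0.081 on the same FPKM scales, -0.0033 with no filter on low counts and between -0.089 (without WT replicate 2) and 0.12 when 1 library was left out. With the length correction Fzd2 was 0.026, Rnf43 0.059 and Tcf7l2 0.022. These are log2 fold changes, and the cause was not tested.

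Replicate numbers recur between the genotypes, and the labels do not say whether same-numbered libraries share anything else. The deviations of same-numbered libraries correlated at 0.0541, -0.0215 and 0.0614. Those of differently numbered libraries lay between -0.167 and 0.109. With 3 libraries a genotype, such correlations cannot exclude a pairing. With the replicate number as a block, 21 members were called, 8 higher and 13 lower, and Porcn was lost at an edgeR adjusted p of 0.0613. With 3 libraries a genotype, genes of a few counts, such as Lef1 and Lgr5, did not pass the filter, and counts that were not whole numbers (16 members, Wnt2, Wnt4, Wnt5a, Fzd3, Fzd6 and Lgr6 among them) hold reads shared between genes.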

Other observations

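Receptors and regulators of the pathway that had too few reads for the naming rule, or stood just outside it, were looked at after their values were seen. Ror1 and Ror2, receptor tyrosine kinases known as receptors for Wnt5a, were low in WT, with 7, 9 and 9 counts in WT, against 78, 93 and 27 in KO for Ror1 and 0, 7 and 5 counts in WT, against 71, 33 and 52 in KO for Ror2. Both passed the filter on low counts through the KO libraries alone and were higher there without overlap (log2 fold change 3.08, SE 0.502, edgeR adjusted p = 0.000868 for Ror1). For Ror2 the change was of the same order (log2 fold change 3.77, SE 0.635, edgeR adjusted p = 0.00105). The highest KO library was replicate 2 for Ror1 and replicate 1 for Ror2. Notum, a secreted enzyme that removes the lipid from Wnt proteins, had 2, 0 and 2 counts in WT, against 23, 11 and 14 in KO, at least 5.33-fold higher in KO with the WT libraries set to 3 counts.

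Within the destruction complex itself, Apc had 198, 171 and 171 CPM in WT and 79, 87.8 and 93.2 CPM in KO. Its KO libraries were all below WT, 2.08-fold on the means (log2 fold change -1.05, SE 0.102, edgeR adjusted p = 5.35e-05). Gsk3b, the kinase that marks beta-catenin for degradation, had 172, 176 and 182 CPM in WT and 151, 136 and 141 CPM in KO, a 1.24-fold fall without overlap (log2 fold change -0.31, SE 0.0839, edgeR adjusted p = 0.0122). With the length correction the Gsk3b difference was 0.00695 on the log2 scale, and without WT replicate 3 its edgeR adjusted p was 0.0511. Axin2, a scaffold of the same complex, rose 9.03-fold in the same libraries.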
